A study of Mus musculus with 6 samples.

Results

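C-type lectin genes, taken here as every row of the deposited expression table whose gene symbol starts with Clec and a digit, numbered 13 of 11031 rows. The table comes from RNA sequencing of RAW264.7, a murine macrophage line from which bone-resorbing osteoclasts form under the cytokine RANKL. The series holds 3 RANKL-stimulated samples and 3 untreated control samples (Ctrl), all collected at day 3 of culture. Both groups are the same cell line and differ, per the labels, only in RANKL. Whether the samples of a group came from separate cultures is not stated. The 12 columns of values per library carry letters that match neither group name, so they were not used, and no comparison of RANKL with Ctrl was made. What follows describes the level of each gene over all libraries together, which is 1 value per gene with no replicate error.

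C-type lectin receptors are surface proteins with which macrophages, dendritic cells and other myeloid cells recognise sugars and lipids of microbes and molecules released by damaged cells. Some of them activate the cell through adaptor proteins that carry an activation motif and recruit the kinase Syk, whereas others carry an inhibitory motif and recruit phosphatases. Osteoclasts use the same adaptors, Fcer1g and Tyrobp, for the costimulatory signals that accompany RANKL during differentiation.

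The family name covers more than receptors. In the table a row carries no more than 1 protein domain entry, and 11 of the 13 rows carry the lectin C-type domain. Clec10a, a galactose-binding macrophage lectin, is entered under the hepatic lectin N-terminal domain. Clec16a, an intracellular protein of endosomes and mitophagy, is entered under its own domain and is no lectin receptor. Clec11a, which carries the lectin domain, encodes a secreted growth factor that promotes bone formation. A further 6 rows carry the lectin C-type domain under other names, namely Cd72, Layn, Dgcr2, Cd302, Klrg2 and Olr1.

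The level used below is the mean expression that the authors deposited for each row. Its values lie between 0.0218 and 13.40 over all rows. They were read as a logarithmic scale of FPKM, an inference that the header does not state. FPKM is fragments per kilobase of transcript scaled to sequencing depth, so that levels of genes of different length can be set side by side. The header names a mean without naming libraries, and that it covers all of them was assumed. No base or offset of a logarithm is given either, and differences are therefore given on this scale and not as folds. Each level is set against all rows by its percentile, the percentage of rows at or below it.

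Levels spread widely within the family. Clec5a was the highest, at a level of 6.52, and Clec11a the lowest, at 0.49, a range of 6.02. The median of the 13 genes was 3.51, against 3.60 over all rows. Of the 13 genes, 5 lay above the upper quartile of all rows and 3 below the lower quartile. By definition these quartiles cut off equal shares of all rows, and the counts are given as a description only. In all, 6 genes were at or above the median of all rows and 7 below it.

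**Figure D1:**
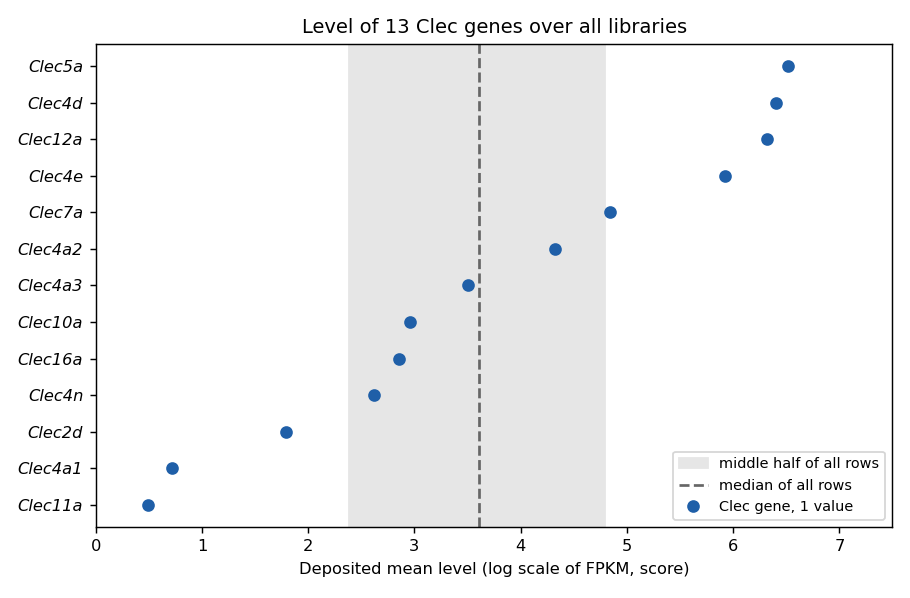
Deposited mean level of the 13 Clec genes, read as a logarithmic scale of FPKM, 1 point per gene. The dashed line is the median of all rows, and grey is the range between their lower and upper quartiles, 2.38 to 4.79. Clec5a, Clec4d, Clec12a, Clec4e and Clec7a lie above the grey range, and Clec2d, Clec4a1 and Clec11a below it.

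Activating receptors were among the highest genes. Clec5a (MDL-1), which signals through Tyrobp, had a level of 6.52, at the 93.4 percentile. Clec4d (MCL) reached 6.41, at the 92.9 percentile. Clec4e (Mincle), a receptor for the mycobacterial cord factor that signals through Fcer1g, had a level of 5.92, at the 89.2 percentile. MCL and Mincle are known to act together. Their levels here were 0.49 apart, and Clec4d lay closer to Clec12a, by 0.09, and to Clec5a, by 0.11. Whether the levels of MCL and Mincle go together was not tested. Clec7a (Dectin-1), the receptor for fungal beta-glucan, was lower, with a level of 4.84 at the 75.7 percentile. The activating receptor Clec4n (Dectin-2), which binds fungal mannans and signals through Fcer1g, stood apart from these with a level of 2.62, at the 29.2 percentile.

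Inhibitory receptors were found at both high and middle levels. Clec12a (MICL), a receptor for uric acid crystals with an inhibitory motif, had a level of 6.32, at the 92.3 percentile. Clec4a2 (DCIR), which likewise carries an inhibitory motif, had a level of 4.32, at the 65.9 percentile. Clec4a3, which the annotation in the table names as a dendritic cell inhibitory receptor, had a level of 3.51, at the 47.8 percentile. That is a name only, and whether Clec4a3 carries an inhibitory motif was not examined. Clec4a1 is the most alike to Clec4a3 in coding sequence among the 13 genes compared. It was almost at the bottom of the table, with a level of 0.72 at the 5.02 percentile. The 3 Clec4a genes carry the same orthology identifier in the table, and their levels were 3.61 apart from the highest to the lowest.

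Family members with other roles were in the lower part of the order. Clec10a had a level of 2.96, at the 35.7 percentile, and Clec16a of 2.85, at the 33.6 percentile. Clec2d, known as osteoclast inhibitory lectin and as a ligand of inhibitory natural killer cell receptors, had a level of 1.79, at the 16.4 percentile. Clec11a, at 0.49, was at the 2.67 percentile. Some neighbours in this order were very close, with gaps of 0.11 between Clec5a and Clec4d, 0.09 between Clec4d and Clec12a and 0.10 between Clec10a and Clec16a. The values for single libraries were not used, so whether these neighbours differ was not tested.

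Of the 13 genes, 10 lie on chromosome 6. The submitters' processing notes name the build mm10, and positions are those of GENCODE M21 on GRCm38, the same assembly. Clec5a lies by itself on the minus strand at chr6:40574894-40585821. A block of 9 annotated Clec genes spans 368 kb at chr6:122921848-123289870, and 6 of them have a row in the table, in the order Clec4a1, Clec4a3, Clec4a2, Clec4n, Clec4d and Clec4e. Levels within this block ran from 0.72 to 6.41. The highest were the adjacent genes Clec4d, on the plus strand, and Clec4e, on the minus strand, at one end of the block, and the lowest was Clec4a1 at the other end. A second block of 13 annotated Clec genes spans 820.4 kb at chr6:128652416-129472779, in the region that also holds natural killer cell receptor genes. It had a row for 3 genes, Clec2d, Clec12a and Clec7a, with levels of 1.79, 6.32 and 4.84. The other 3 genes are Clec11a on chromosome 7, Clec10a on chromosome 11 and Clec16a on chromosome 16. Across the genome 33 Clec genes are annotated, and 20 of them have no row in the table analysed here. The 13 genes with a row are annotated as protein-coding except Clec7a, which GENCODE M21 lists as a polymorphic pseudogene, a gene that is intact in some mouse strains.

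**Figure D2:**
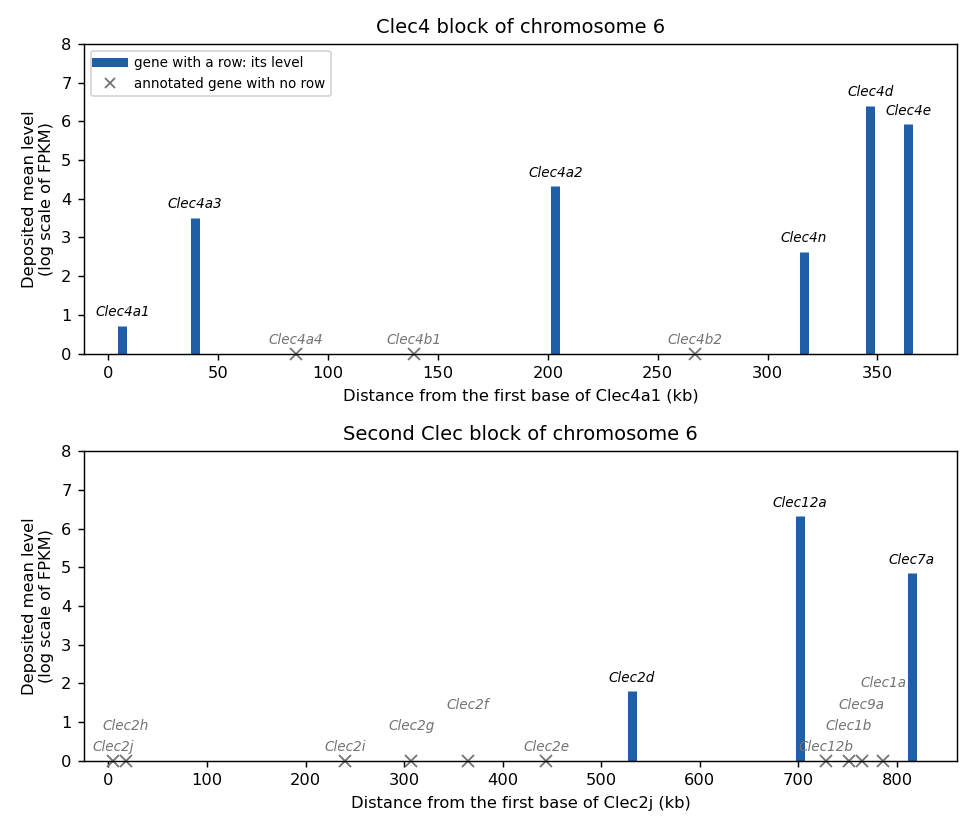
Level of the Clec genes in the 2 blocks of chromosome 6 (bars) against the distance in kb from the first gene of each block. Levels are deposited means, read as a logarithmic scale of FPKM, and crosses are annotated genes that have no row. The 2 highest bars of the upper panel are the neighbours Clec4d at 6.41 and Clec4e at 5.92.

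Reads from near-identical genes can be assigned to the wrong one, so the similarity of the members bears on how their levels can be read. Over the longest annotated coding sequence of each gene, the 78 pairs had a median identity of 42.1% of alignment columns, with a range from 15.5% to 68.9%. Columns with gaps count as not identical, so a difference in length lowers the value. The lowest values are those of Clec16a, whose coding sequence of 3108 bases is the longest, and do not measure divergence alone. Values for unrelated sequences were not computed for comparison. Only 3 pairs reached 60%, and all were within the Clec4a group. Clec4a1 and Clec4a3 were 68.9% identical, Clec4a2 and Clec4a3 65.9%, and Clec4a1 and Clec4a2 62.8%. Next came Clec4d and Clec4n, at 54.8%. The longest run of identical bases between the coding sequences of any pair was 34 bases, shared by Clec4a2 and Clec4a3. That run lies in the stretch of 60 coding bases printed here for the 3 genes. The stretch was placed by shared runs and starts at the run of 23 bases that Clec4a3 shares with Clec4a1. It is more alike than the coding sequences of the 3 genes as a whole. Capitals mark bases that differ from Clec4a3.
Clec4a2, coding bases 370 to 429: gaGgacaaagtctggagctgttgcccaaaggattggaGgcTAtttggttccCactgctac
Clec4a3, coding bases 298 to 357: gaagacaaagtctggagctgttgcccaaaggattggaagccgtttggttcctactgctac
Clec4a1, coding bases 319 to 378: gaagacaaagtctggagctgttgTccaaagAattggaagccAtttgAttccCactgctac
In this stretch Clec4a2 differed from Clec4a3 at 5 bases and Clec4a1 at 5.

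**Figure D3:**
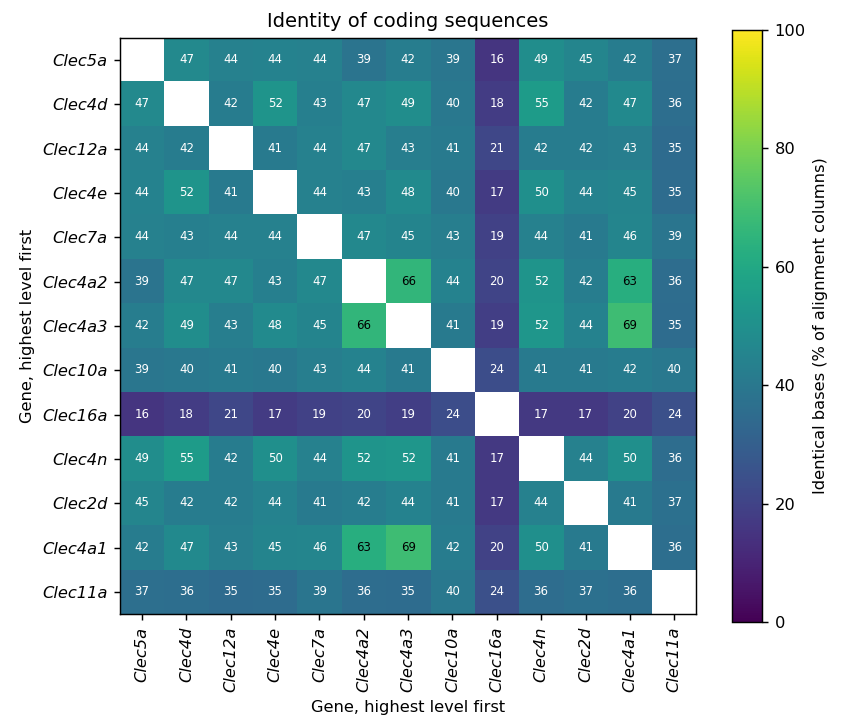
Identical bases as a percentage of alignment columns for each pair of coding sequences, with genes in order of level on both axes. Clec4a1, Clec4a2 and Clec4a3 form the only pairs at or above 60%. Clec16a has the lowest values, which its long coding sequence of 3108 bases limits, because columns with gaps count.

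Over whole transcripts, 7 of the 13 genes had no run of 50 bases that also occurs in a transcript of another gene, namely Clec5a, Clec4d, Clec4e, Clec7a, Clec4a3, Clec4a1 and Clec11a. Their levels do not rest on such shared runs. For Clec12a, Clec16a and Clec4n less than 1% of the runs were shared, and for Clec2d 1.98%. Clec10a shared 9.02% of its runs, nearly all of them with Mgl2, its neighbouring paralogue (8.49%). Clec4a2 shared 6.83%, of which the largest part was with Clec4a4 (3.85%). The levels of Clec10a and Clec4a2 are for that reason less certain. Neither Mgl2 nor Clec4a4 has a row in the table analysed here.

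Promoter sequences, covering 250 bases before and 50 after the start of transcription, were found for 11 of the 13 genes in RefSeq on GRCm38.p6. There were 13 entries because Clec4a3 and Clec7a have 2 starts each. The 2 entries of each of these genes overlap. In shares by entry, the AGTTTC match of Clec7a and an AGGAAG match of Clec4a3 are therefore counted in both entries. The letters AGGAAG, the core bound by ETS factors such as PU.1 in macrophages, occurred on either strand in 7 of these 11 genes. By entry this was 61.5% of the promoters, against 35.4% of all 32851 promoters of the same length. Clec5a had 3 such matches, and Clec12a, Clec16a and one of the Clec4a3 starts had 2. Clec4e, Clec7a, Clec2d and Clec4a2 had none, so matches were present in genes at both ends of the order and absent from some of the highest. The letters AGTTTC, which form part of interferon response elements, occurred in 5 genes and 46.2% of entries, against 15.8% of all promoters. The AP-1 letters TGAGTCA occurred in Clec4a2 alone, that is 7.69% of entries against 5.2% of all promoters. With so few promoters these shares are descriptions only, and a match of letters is not a site. The promoters of Clec5a and Clec4e are printed as the ones with the most matches and with none among the 4 highest genes, 5′ to 3′ from RefSeq, with matches in capitals. The matches in Clec5a include its single AGTTTC.
Clec5a, chr6:40585756-40586055, minus strand: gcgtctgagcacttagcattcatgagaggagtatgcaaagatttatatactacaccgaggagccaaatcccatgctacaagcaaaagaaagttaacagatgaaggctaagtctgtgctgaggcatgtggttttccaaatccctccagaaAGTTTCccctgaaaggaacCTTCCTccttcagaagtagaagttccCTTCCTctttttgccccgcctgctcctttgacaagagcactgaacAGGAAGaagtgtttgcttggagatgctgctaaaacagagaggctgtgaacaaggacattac
Clec4e, chr6:123289822-123290121, minus strand: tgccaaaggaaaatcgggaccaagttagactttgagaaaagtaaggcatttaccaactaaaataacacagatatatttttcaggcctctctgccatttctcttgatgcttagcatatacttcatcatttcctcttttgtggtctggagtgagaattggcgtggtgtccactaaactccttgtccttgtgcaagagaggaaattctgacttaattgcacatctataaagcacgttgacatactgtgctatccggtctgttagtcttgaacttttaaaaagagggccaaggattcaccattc

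Genes that act with these receptors were mostly present at higher levels. Of a list of 41 genes for adaptors, kinases, phosphatases, transcription factors and cytokine outputs, 37 had a row, with a median level of 4.85, against 3.60 over all rows, and 25 were at or above the median of all rows. The adaptors Tyrobp and Fcer1g were near the top of the table. Tyrobp had a level of 9.40, at the 99.1 percentile, and Fcer1g of 8.13, at the 98.0 percentile. A further adaptor of the list, Hcst, was lower, with a level of 3.50 at the 47.7 percentile. The phosphatase Ptpn6, which inhibitory receptors recruit, had a level of 7.37. The phosphatases Inpp5d and Ptpn11 of the same list were lower, at 5.01 and 4.25. The kinase Syk was at 4.64, and the Card9, Bcl10 and Malt1 proteins that carry its signal to NF-kB were at 5.07, 5.42 and 4.39. Each of the 4 highest Clec genes was therefore listed above Syk, Card9, Bcl10, Malt1 and the adaptor Hcst, and below Tyrobp and Fcer1g. Among the outputs, Tnf was at 5.74, Il23a at 1.23 and Il1b at 1.17, whereas Il6, Il10 and Il12b have no row here.

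**Figure D4:**
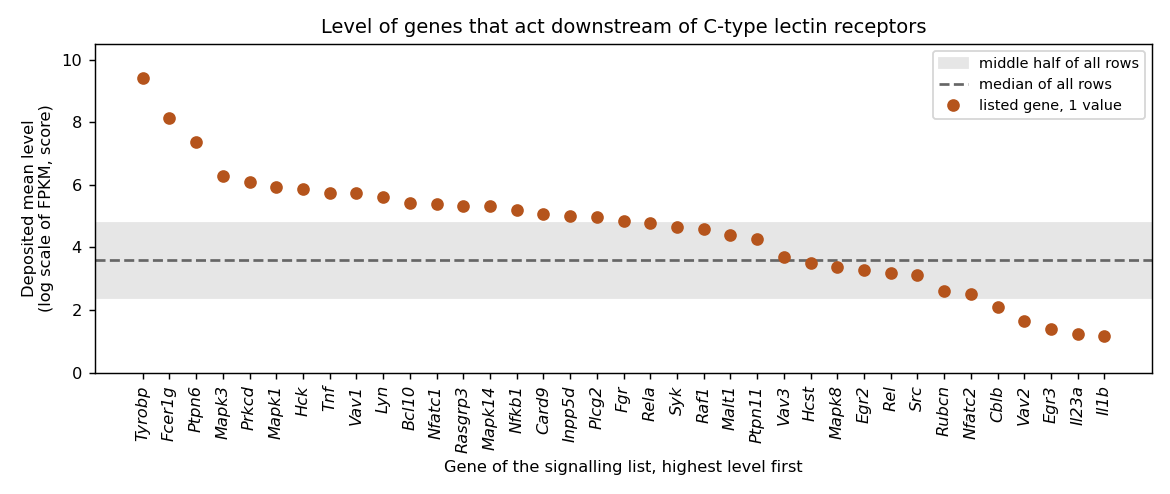
Deposited mean level, read as a logarithmic scale of FPKM, of the 37 listed genes of the signalling list, highest first, 1 point per gene. The dashed line is the median of all rows, and grey is the range between their quartiles. Tyrobp, Fcer1g and Ptpn6 are the 3 highest points, and Il23a and Il1b the 2 lowest.

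The pathway annotation in the table places 4 of the 13 genes in C-type lectin receptor signaling, namely Clec4e, Clec4d, Clec4n and Clec7a, with levels between 2.62 and 6.41. The 9 others, which include the high genes Clec5a and Clec12a, ran from 0.49 to 6.52. Over all 79 rows that carry this pathway the median level was 4.20, and 56 of them were at or above the median of all rows.

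Of a hand-made list of 44 lectin-domain genes outside the Clec names, which does not hold Dgcr2, 9 had a row in the table, with a median level of 2.54 and a range from 0.31 for Olr1 to 7.60 for Cd72, an inhibitory receptor. The scavenger receptor Colec12 was at 5.24 and the hyaluronan receptor Layn at 5.19. The mannose receptor gene Mrc1, Cd209a and Cd207 have no row here.

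The markers of the labelled cells were present. Of 8 macrophage markers 7 had a row, all at or above the median of all rows, with Lyz2 at a level of 12.37 and Cd68 at 9.53, and Mertk had none. All 9 osteoclast markers had a row, from 0.45 for Calcr to 6.74 for Ctsk, as a mean over both conditions. Of these 9, 6 were at or above the median of all rows, and Calcr, Oscar (2.54) and Ocstamp (2.72) were below it. Of 6 dendritic cell markers Itgax (4.05) and Zbtb46 (1.06) had a row. No natural killer, B, T or endothelial cell marker had a row, 1 of 3 megakaryocyte markers did (Pf4, 1.23) and 1 of 4 fibroblast and osteoblast markers did (Runx2, 0.53). In a bulk sample, fewer cells that express a gene and less RNA of it per cell cannot be told apart.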

How the data were processed

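RNA of 3 RANKL-stimulated and 3 untreated RAW264.7 samples was sequenced on an Illumina platform from poly(A)-selected, strand-specific libraries. The submitters' processing notes name DESeq and mm10, and DESeq2 was the authors' tool per the methods of the study. For the aligner, counter, annotation release and row filter, this information is not given in the sources used here. For each row, the mean expression was deposited by the authors as 1 score per row. The score was read here as a logarithmic scale of FPKM, which is not stated, nor are a base and offset. It was used as deposited.

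The table also holds 12 columns of values for single libraries, headed by letters that match no sample label, and 4 columns of the authors' own comparison with fold changes, p-values and a direction call. Neither kind was used in any result, so the planned count model, depth per sample and replicate error were not computed.

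Rows were selected by symbol. Percentiles were ranked over all 11031 rows. Positions, exons and transcripts came from GENCODE M21, which held 10915 of the row identifiers. Coding sequences were aligned globally (Biopython 1.88, match 5, mismatch -4, gap opening 10 and extension 0.5). Shared runs of 50 bases were counted against all transcripts on both strands. The alignment identity, the search for shared runs on the same strand and the motif search on both strands were tested on simulated sequences. The other steps were not. Every member is named, together with genes of 2 fixed lists and of cell type markers, plus Mgl2, Clec4a4 and Dgcr2, which were named after the analysis. The members and lists were chosen with earlier results of these data known. Protein identity was planned and replaced by coding sequence identity.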

Additional observations from a re-analysis of the deposited data

How the results depend on the processing

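No paired analysis was possible because the columns for single libraries, whose letters match no sample label, were not used. For the same reason leaving out a replicate, another count filter or normalization and another pseudocount were not run. Ranked among the 10894 rows annotated as protein-coding or as polymorphic pseudogenes, all 13 percentiles lay lower by 0.05 to 0.45 points. Of the 13 genes, 6 were at or above the median and 5 above the upper quartile. Ranked among the 9928 rows at or above the 10th percentile of level, the 11 genes still ranked lay lower by 0.73 to 9.29 points, because the lowest rows are left out by construction, with 6 genes at or above the median and 4 above the upper quartile. In the 250 bases before the start alone, the AP-1 share of promoters was 0%, since the single match lies after the start, the AGGAAG share was 61.5% and the AGTTTC share 30.8%. With runs of 100 bases, an alternative chosen after seeing the data, 2 genes in place of 6 shared runs with another gene, Clec10a (2.64%) and Clec4a2 (2.14%). Alternative protein scoring was not run. Only 1 value per gene was used, and its spread between libraries and the depth behind it were not analysed here.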
